A study of Mus musculus with 2 samples.

Results

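γδ T cells of the mouse uterus were described in 2 single-cell RNA libraries, each prepared from the whole uteri of 3 pooled C57BL/6J females aged 6 months. One library is labelled control and carries the title Prickle1 f/f, a floxed allele of Prickle1, which encodes a planar cell polarity protein. The other is labelled cKO, for conditional knockout, and is titled Prickle1 f/f MiC. The labels do not spell out MiC, do not name the promoter that drives any recombinase, and give the genotype of both libraries as wild-type, while the series title places the loss of the protein in the myometrium. With 1 pooled library per group, animals could not be separated, no test between the conditions was possible, and no p-value is given. Paired values give the control-labelled library first. All intervals are 95% intervals and cover counting error only, not the spread between mice.

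Members were chosen by measured UMI counts. A cell was taken as a γδ T cell when it had at least 1000 unique molecular identifiers (UMIs, counted transcripts), at least 500 genes, at most 20% mitochondrial UMIs and at least 1 UMI of the T-cell receptor complex genes Cd3d, Cd3e and Cd3g. It also had to carry at least 2 UMIs summed over Trdc, Tcrg-C1, Trdv4 and Cd163l1, more than its summed Trac, Trbc1 and Trbc2. Cells with more than 2 UMIs of C1qa, C1qb and C1qc, or with any Pdgfra or Epcam UMI, were left out. The rule kept 338 of 7076 filtered cells. They were 74 of 3490 cells in the control-labelled library and 264 of 3586 in the cKO-labelled library. The libraries held 45035801 and 34261441 UMIs in all. The members held 311458 and 1187923 of them, with medians of 4093.5 and 3652.5 UMIs and of 1951 and 1909.5 genes per cell. 6 barcodes were shared by filtered cells of both libraries, and 0 of them were members.

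γδ T cells carry a T-cell receptor built from a γ and a δ chain in place of the α and β chains of conventional T cells. In mice, waves of γδ T cells leave the fetal thymus, settle in particular tissues and stay there. The uterus is one of the sites known for cells that pair the variable segments Tcrg-V6 and Trdv4 and that are poised to make interleukin 17. Cd163l1 encodes the scavenger receptor SCART1, which is known from γδ T cells of that kind, so 2 of the 4 genes that chose the members favour that kind over others.

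The receptor genes that chose the members are given as a description only. Trdc, the constant region of the δ chain, had 582 UMIs in the control-labelled library and 1986 in the cKO-labelled library, in 74 of 74 and 261 of 264 members. Tcrg-C1, a constant region of the γ chain, had 194 and 658 UMIs, Trdv4 had 234 and 555, and Cd163l1 had 259 and 701. All 4 genes were detected together in 44 and 125 members, and a single one of them in 3 and 8. The summed level of the 4 genes had a median of 16.5 and 13 UMIs per member, against 2 and 3 UMIs for the summed α and β constant regions. Just inside the rule, at a sum of 2, lay 1 member of each library, with 2253 and 21227 UMIs in all. Just outside it, at a sum of 1, lay 0 and 2 cells. The rule also refused 6 and 14 cells whose γδ sum did not exceed their αβ sum. Trdc lies on chromosome 14 at 54142851 to 54148868 and Tcrg-C1 on chromosome 13 at 19214103 to 19217024, by the GENCODE vM21 annotation of GRCm38 (mm10). In the plot of receptor sums per cell, members spread widely along the γδ axis and few lie near the threshold.

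**Figure D1:**
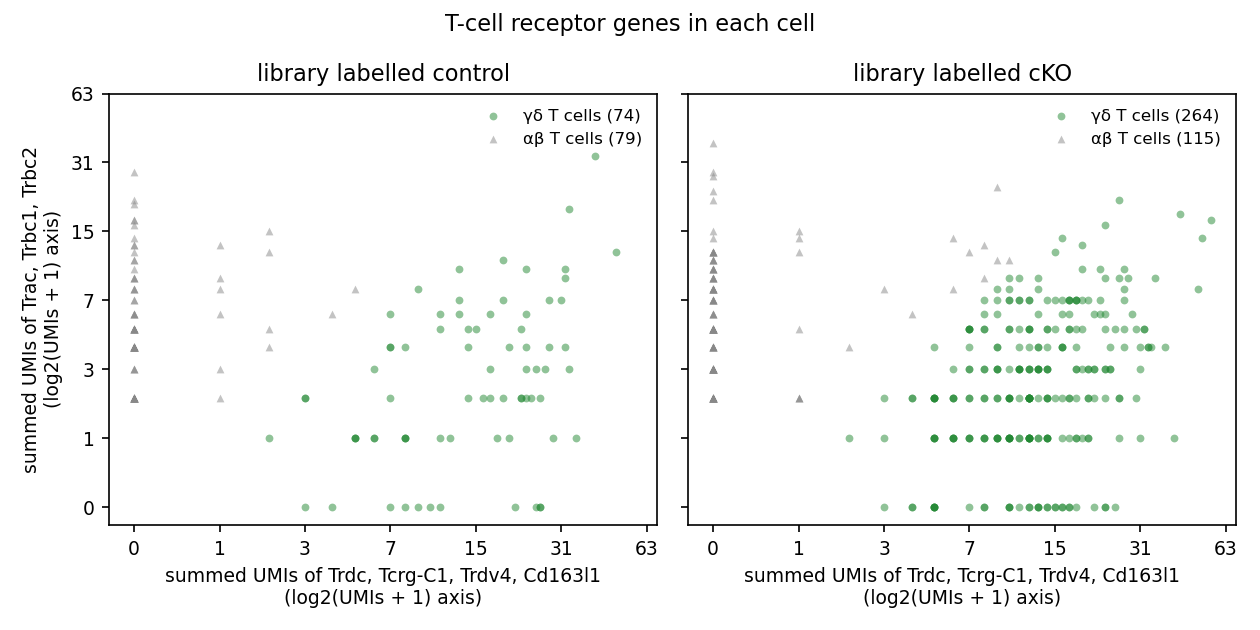
Summed UMIs per cell of the 4 γδ genes (horizontal, log2(UMIs + 1) axis) and of Trac, Trbc1 and Trbc2 (vertical, same scale), with 74 and 264 γδ T cells as circles and 79 and 115 αβ T cells as triangles. The γδ T cells have medians of 16.5 and 13 UMIs on the horizontal axis, and the separation of the classes follows from the rule that chose them.

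Other receptor segments, which the rule did not use, were sparse in the members. Tcrg-V6, the variable γ segment of the fetal uterine wave, had 8 UMIs in 7 members of the control-labelled library and 33 in 31 members of the cKO-labelled library. No αβ T cell and no natural killer (NK) cell of either library had a Tcrg-V6 UMI. Of those members, 7 of 7 and 30 of 31 also had a Trdv4 UMI, but Trdv4 chose the members and was found in 61 of all 74 and 196 of all 264. It was also found in 7 of 9 and 28 of 35 members with a UMI of another γ variable segment. Of these members, 0 and 11 also had a Tcrg-V6 UMI, so no pairing of segments is read from this. The other γ variable segments were as sparse or sparser. Trgv2 had 7 and 31 UMIs, Tcrg-V5 6 and 6, Tcrg-V4 1 and 3, and Tcrg-V1 0 and 2. Of the γ constant genes outside the rule, Tcrg-C2 had 17 and 44 UMIs, Tcrg-C4 16 and 65, and Tcrg-C3 0 and 0. Among the δ segments other than Trdv4, 1 UMI of Trdv2-2 was found in the control-labelled library and 0 in the cKO-labelled library. The γ constant genes Tcrg-C1, Tcrg-C2 and Tcrg-C3 are near-identical copies, so reads could be lost or split between them. Reads taken at the 3′ end of a transcript can miss a variable segment, though Trdv4 had 234 and 555 UMIs here. Why the other segments were sparse was not tested. A Trdv4 or Cd163l1 UMI was present in 69 of 74 members (93.2%) and 244 of 264 (92.4%). The 5 and 20 members with neither were shallower, with medians of 3302 and 2466 UMIs. Between members with and without these UMIs, 990 of 7746 genes were past 2-fold higher in both libraries (12.8%) and 108 lower (1.39%). The split uses genes of the rule and its smaller side holds 5 and 20 shallow cells, so nothing is read from these counts.

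Trbc1 and Trbc2, the β constant regions, were common in the members, while Trac, the α constant region, was rare. Trac had 13 UMIs in the control-labelled library and 39 in the cKO-labelled library, levels of 41.7 and 32.8 CPM (counts per 1000000 UMIs) over the summed members. In αβ T cells, gated as the rule's mirror image with the sum of Trac, Trbc1 and Trbc2 at least 2 and above the γδ sum, Trac stood at 308 and 352 CPM. Trbc1 had 385 and 380 CPM in the γδ T cells against 438 and 462 CPM in the αβ T cells. The Cd3 genes and the α and β constant regions chose both classes, so their values are a description. Cd3e, a part of the receptor complex, had 629 and 623 CPM in γδ T cells against 308 and 370 CPM in αβ T cells, and Cd3g had 584 and 597 against 204 and 201 CPM. The coreceptor genes Cd4 and Cd8a had 0 UMIs in the control-labelled library, and 5 UMIs in 1 cell and 2 UMIs in 2 cells in the cKO-labelled library.

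γδ T cells made up 2.12% (1.67 to 2.65) of filtered cells in the control-labelled library and 7.36% (6.53 to 8.27) in the cKO-labelled library, a ratio of 3.47 (2.67 to 4.56). The intervals are exact binomial ones for the shares and exact conditional ones for the ratio. The ratio depended on the denominator. Without cells that had an Epcam UMI, a marker of epithelium, the shares were 3.02% and 7.65% and the ratio 2.53. Among cells with a UMI of Ptprc, the pan-leukocyte gene, 7.57% and 17.0% were members, a ratio of 2.25. Among cells with a Cd3 UMI the shares were 37.0% and 59.5%, a ratio of 1.61 (1.24 to 2.11). αβ T cells were 79 cells (2.26%) and 115 cells (3.21%) of filtered cells, a ratio of 1.42 (1.05 to 1.91), and without Epcam-positive cells their ratio was 1.03 (0.770 to 1.40). NK cells, by the gate given below, were 88 cells (2.52%) and 175 cells (4.88%), a ratio of 1.94 (1.49 to 2.53). The NK ratio was 1.41 (1.09 to 1.85) without Epcam-positive cells and 1.43 (1.09 to 1.88) among Ptprc-positive cells. A higher share was thus not particular to γδ T cells. The share of γδ T cells was higher in the cKO-labelled library under all 4 denominators, and the intervals of the libraries did not overlap in any of them. With 1 digestion of 3 pooled uteri per group, a difference in how the tissue came apart and a difference between the animals cannot be told apart.

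**Figure D2:**
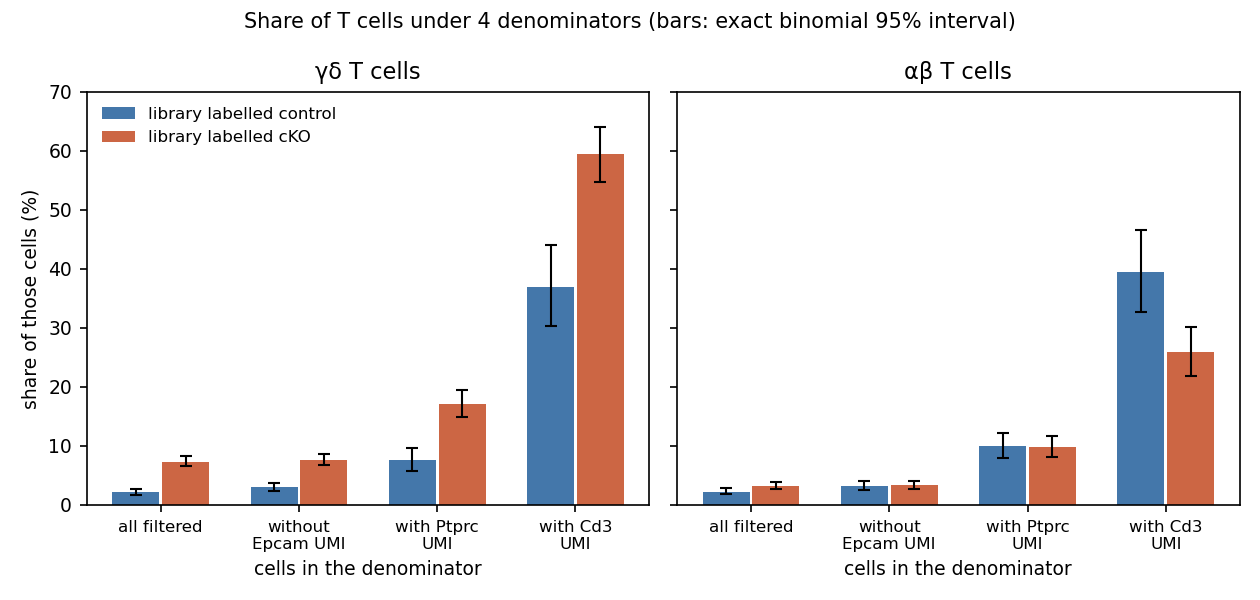
Share (%) of γδ T cells (left) and αβ T cells (right) in each library under 4 denominators, with exact binomial 95% intervals. γδ T cells go from 2.12% to 7.36% of all filtered cells and from 37.0% to 59.5% of cells with a Cd3 UMI, while αβ T cells go from 39.5% to 25.9% of the latter.

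Prickle1, the gene targeted in the study, was not lower in the cKO-labelled library. Over all filtered cells it stood at 2.56 CPM (2.07 to 3.12) in the control-labelled library and at 9.03 CPM (7.97 to 10.2) in the cKO-labelled library. In γδ T cells it had 5 UMIs in 4 of 74 members (16.1 CPM, 5.21 to 37.5) and 37 UMIs in 32 of 264 members (31.1 CPM, 21.9 to 42.9). These 3′ counts need not lie within a deleted part of the gene, so they check neither label, and directions are given here by label only. Prickle1 lies on chromosome 15 at 93499114 to 93595891, on the minus strand.

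γδ T cells held the highest Prickle1 level of the 7 classes compared, in both libraries. Smooth muscle cells followed with 6.65 CPM (2.16 to 15.5) and 19.2 CPM (12.5 to 28.1), and fibroblasts with 4.10 and 9.18 CPM. αβ T cells had 1 and 2 UMIs (2.46 and 3.60 CPM), NK cells 0 and 1, and macrophages 1 and 1. The γδ level was 3.91 times (1.20 to 10.1) and 3.39 times (2.29 to 4.92) the fibroblast level. Against smooth muscle the ratio was 2.41 (0.56 to 10.5) and 1.62 (0.96 to 2.79), so the order of these neighbours was not resolved at this depth. Against αβ T cells it was 6.52 (0.73 to 308) and 8.66 (2.23 to 74.2). With each cell thinned to 1000 UMIs, 2.70% and 4.55% of γδ T cells had a Prickle1 UMI, against 1.44% and 1.77% of smooth muscle cells and 0 of 225 and 0 of 159 macrophages, which by the floor of 3 counts allows shares of up to 1.33% and 1.89%. Unthinned, 5.41% and 12.1% of γδ T cells had one, at median depths of 4093.5 and 3652.5 UMIs, against 0.444% and 0.629% of macrophages at 9572 and 6400 UMIs. Droplets of 10 to 100 UMIs, which hold free RNA, had 0.578 and 5.38 CPM.

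**Figure D3:**
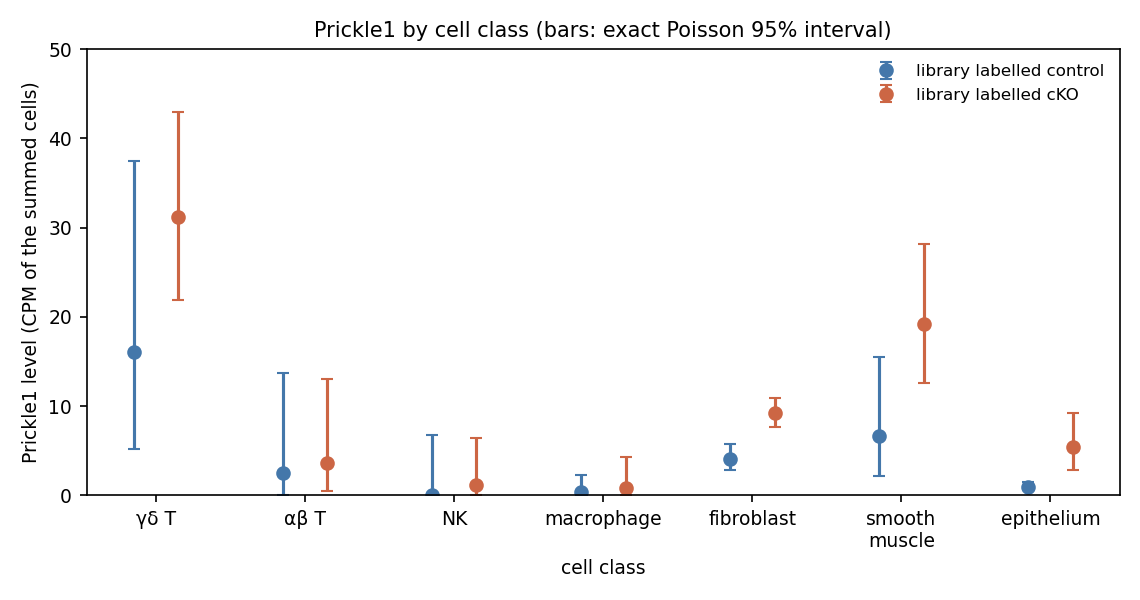
Prickle1 level (CPM of the summed cells) in 7 cell classes of each library, with exact Poisson 95% intervals. γδ T cells stand highest in both libraries, at 16.1 and 31.1 CPM, and their intervals overlap those of smooth muscle.

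Genes of the interleukin 17 programme set γδ T cells apart from αβ T cells of the same libraries. For such comparisons the log2 ratio of CPM levels was taken with 5 CPM added to each, and a gene counted as past 2-fold when it passed in both libraries. Among 8888 genes, 306 were past 2-fold higher in γδ T cells (3.44%) and 273 lower (3.07%). Of 22 receptors and surface or channel genes linked to this programme, 14 were higher and 1 was lower, with median log2 ratios of 1.99 and 1.82, against medians over all genes of 0.08 and 0.11. The list's Cd163l1 was left out, since it chose the cells.

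These receptor genes were detected in the members of both libraries. Il23r, the receptor for interleukin 23, had 47 UMIs (151 CPM) in the control-labelled library and 98 (82.5 CPM) in the cKO-labelled library, against 27.1 and 8.99 CPM in αβ T cells. Ccr2, a chemokine receptor for homing to tissue, had 581 UMIs in 70 members and 1891 in 245, with log2 ratios of 2.25 and 2.01 over αβ T cells. For Cxcr6, a receptor of tissue-dwelling lymphocytes, the log2 ratios were 1.58 and 1.90. Il17re, which encodes a receptor subunit for interleukin 17C, was higher by 2.33 and 2.29, and Il1r1, the interleukin 1 receptor, by 2.43 and 1.73. Il1rl1, the interleukin 33 receptor known from group 2 lymphoid cells, was the one lower gene, at -3.55 and -3.10. Per cell at 1000 UMIs, the list summed to a median of 8 and 8 UMIs in γδ T cells and of 2 and 1 in αβ T cells.

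Of 16 regulators of the programme, 3 were past 2-fold higher in γδ T cells in both libraries and 0 lower. Over all genes 3.44% were higher and 3.07% lower. Blk, a Src-family kinase of γδ T cells, had 47 and 193 UMIs against 1 and 8 in αβ T cells. Sox13, a transcription factor of the γδ lineage, had 3 and 40 UMIs against 0 and 0, so its control-labelled value rests on 3 UMIs. Maf was higher by 1.75 in the control-labelled library and by 0.92 in the cKO-labelled library, so it was not past 2-fold in both. The cytokine itself was rare: Il17a had 4 UMIs in 3 of 74 members (4.05%) and 31 UMIs in 17 of 264 (6.44%), while Il17f had 0 and 1 UMI, Ifng 0 and 4, and Il22 and Ccr6 had 0 in both libraries. In αβ T cells Il17a had 0 and 1 UMI. Fibroblasts, which should lack it, had a UMI in 0% and 0.0952% of cells at median depths of 12246.5 and 11564 UMIs.

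**Figure D4:**
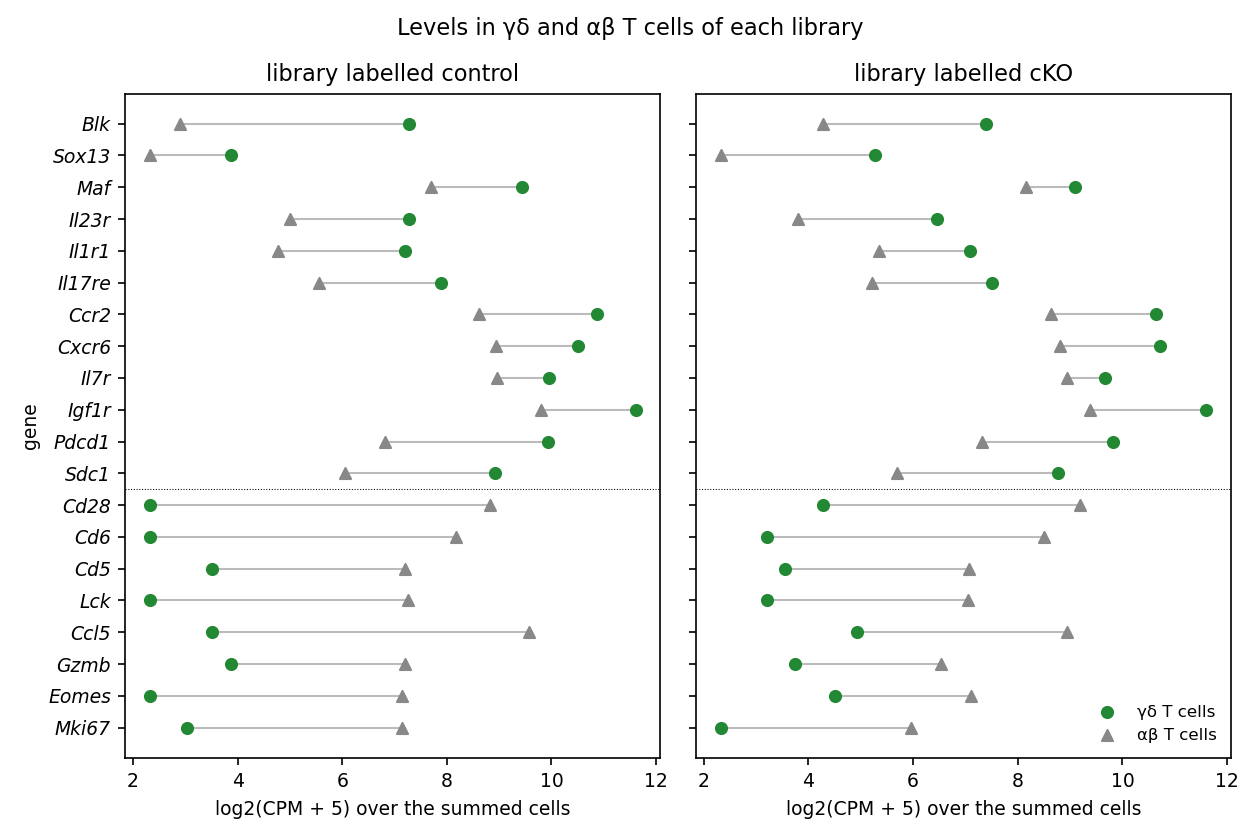
Levels on the log2(CPM + 5) scale of 20 genes in γδ (circles) and αβ T cells (triangles) of each library; genes above the dotted line were higher in γδ T cells in both libraries, those below it lower. Blk moves from 151 and 162 CPM in γδ T cells to 2.46 and 14.4 CPM in αβ T cells, and Cd28 is at 0 CPM in γδ T cells of the control-labelled library.

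Over all genes outside the rule, those that ranked highest in γδ over αβ T cells by the smaller of the library ratios were Mcc, Olfr1259, Prelid2, Blk, Abi3bp, Ece1, Sdc1, Ly86, Mtcl1 and Tmem176a. Mcc, a regulator first known from colorectal cancer, had 26 UMIs in 16 members and 238 in 118, against 1 and 9 in αβ T cells. Sdc1, which encodes the heparan sulfate proteoglycan syndecan-1, had 149 and 513 UMIs against 25 and 26. Mcc and Abi3bp are also fibroblast genes here, with 364 and 985, and with 1439 and 1784 UMIs in fibroblasts. Igf1r, the receptor for insulin-like growth factor 1, had 978 UMIs in 73 members and 3659 in 259, a level of 3140 and 3080 CPM against 892 and 660 CPM in αβ T cells. Pdcd1, which encodes the inhibitory receptor PD-1, had 302 UMIs in 66 of 74 members and 1066 in 241 of 264. That is 970 and 897 CPM against 108 and 155 CPM in αβ T cells, log2 ratios of 3.10 and 2.50. Igf1r and Pdcd1 were found in most members of both libraries.

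Genes of conventional T-cell activation and of cytotoxicity were lower. Cd6, Cd28, Fyb, Gramd3, Myb, Ms4a4b, Ccl5, Top2a, Lck and St8sia1 ranked lowest. Cd28, the costimulatory receptor, had 0 and 17 UMIs against 182 and 322 in αβ T cells, at least 46.5-fold lower in the control-labelled library by the floor of 3 counts over the group. Lck, the kinase that starts αβ receptor signalling, had 0 and 5 UMIs against 60 and 71. Cd5 had 2 and 8 against 58 and 72. Of the 16 listed T-cell receptor signalling genes outside the Cd3 genes, 7 were lower and 0 higher. Zap70 and Lat, which relay the signal downstream, differed from αβ T cells by 0.61 and 0.84 and by 0.93 and -0.30.

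Of 19 genes of type 1 and cytotoxic function, 14 were lower in γδ T cells in both libraries and 0 higher, with median log2 ratios of -3.25 and -1.75 (-2.85 and -1.75 with genes at 0 set to their bound). Ccl5, a chemokine of effector T cells, had 2 and 30 UMIs against 307 and 270. Eomes, a transcription factor of NK and memory T cells, had 0 and 21 against 55 and 74, and Gzmb, which encodes granzyme B, 3 and 10 against 58 and 49. Tbx21, the type 1 master regulator, had 1 and 3 UMIs, Nkg7 0 and 6, and Gzma 1 and 36. Cd27, which marks γδ T cells that make interferon γ, had 5 and 20 UMIs against 79 and 148. Of 19 cell cycle genes, 9 were lower and 0 higher: Mki67, a proliferation marker, had 1 and 0 UMIs against 55 and 32, and those αβ UMIs came from 3.80% and 4.35% of αβ T cells. In the αβ gate a dendritic marker list stood at 1067 and 1276 CPM, and the part of other cells in it was not tested. The cytotoxic UMIs of the αβ T cells were also uneven. At 1000 UMIs per cell the list had a median of 1 UMI in γδ and in αβ T cells of the control-labelled library, and of 1 and 2 in the other. A sum of 10 or more was found in 7 and 12 αβ T cells and in 0 γδ T cells. The 5 αβ T cells with the most held 35.2% and 23.6% of the class's UMIs of the list. The NK marker list stood at 522 and 559 CPM in αβ T cells, against 6.42 and 130 CPM in γδ T cells, and the part of NK cells in this result was not tested. Without possible doublets in both classes, 15 of 22 receptor genes of the interleukin 17 programme were higher and 16 of 18 cytotoxic genes lower. The share of all genes past 2-fold under that filter is not given, so these counts are a description only.

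Of 21 genes of tissue residency and exit, 2 were higher and 5 lower in both libraries, where 3.44% of all genes were higher and 3.07% lower. Itgb7 was higher with Cxcr6, and S1pr1, the receptor that lymphocytes use to leave tissue, had 5 and 47 UMIs against 91 and 151. Klf2, which drives the exit genes, had 0 and 18 against 38 and 48. NK cells, gated by Klre1 and Eomes with no Cd3 UMI, numbered 88 and 175. Against them 503 of 9237 genes were past 2-fold higher in γδ T cells in both libraries (5.45%) and 429 lower (4.64%). Igf1r, Sdc1, Cxcr6, Aqp3 and Bcl11b led the higher genes and Klra7, Irf8, Myb, Cd7 and Fasl the lower. The NK gate also held 694 and 881 UMIs of Cd74, an antigen presentation gene, and the part of other cells in it was not tested.

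Between the libraries, interferon-stimulated genes were lower in γδ T cells of the cKO-labelled library. Of 7756 genes with at least 20 UMIs over the members, 539 were past 2-fold higher (6.95%) and 117 lower (1.51%), with a median log2 ratio of 0.11 across them. Of 31 interferon-stimulated genes past that filter, of 45 in the files, 23 were past 2-fold lower and 0 higher. The median log2 ratio of the 31 was -1.58. The filter sums both libraries, so a gene could pass it through the control-labelled library alone, and counts and ranks are a description only. Over all 45 genes, without that filter, the list summed to 5076 and 1847 CPM. The 10 lowest of all genes were Cxcl10, Ifit1, Prap1, Rsad2, Cmpk2, Rtp4, Slfn5, Rnf213, Map3k12 and Tepsin. Cxcl10, Ifit1, Rsad2, Cmpk2, Rtp4, Slfn5 and Rnf213 are known interferon targets.

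Ifit1, which encodes a sensor of foreign RNA, had 134 UMIs in 15 of 74 members of the control-labelled library (430 CPM, 360 to 510) and 14 UMIs in 7 of 264 members of the cKO-labelled library (11.8 CPM, 6.44 to 19.8). Its log2 ratio was -4.70. Rsad2, which encodes the antiviral enzyme viperin, had 52 UMIs in 11 members and 7 in 7, a log2 ratio of -3.98. Cxcl10, a chemokine induced by interferon, had 51 UMIs and 1. Ifit3 had 19 UMIs and 0, at least 24.2-fold lower by the floor of 3 counts, with a near-identical copy, Ifit3b, that could take some of its reads. Cmpk2 had 26 and 2 UMIs and Isg15, a ubiquitin-like modifier, 23 and 18. Ifit1, Rsad2, Cxcl10, Cmpk2 and Isg15 thus reached 20 UMIs in the control-labelled library alone. Not every gene of the list followed: Slfn2 had 295 and 301 CPM.

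The interferon-stimulated UMIs were unevenly spread over the members. Each cell was thinned to 1000 UMIs to compare depths evenly. The 45 genes then summed to 0 to 50 UMIs per member with a median of 2 in the control-labelled library, and to 0 to 15 with a median of 1 in the cKO-labelled library. A sum of 10 or more was found in 12 of 74 members (16.2%) and in 5 of 264 (1.89%). At full depth, the 5 members with the most held 41.0% of the list's UMIs in the control-labelled library and 13.4% in the cKO-labelled library. The lower level was also present in αβ T cells, where 24 of 42 genes were past 2-fold lower and 1 higher, with a median of -1.12. There the background was 142 of 6386 genes lower (2.22%) and 227 higher (3.55%). Ifit1 had 65 and 8 UMIs in αβ T cells, and a UMI in 7.74% and 0.571% of fibroblasts.

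Free RNA differed between the libraries in the same direction. The interferon list summed to 2969 CPM in near-empty droplets of the control-labelled library and to 747 CPM in those of the cKO-labelled library, against 5076 and 1847 CPM in the members. Prap1, an epithelial gene with 11317 and 249 CPM in those droplets, gives a measure of how much free RNA reached the members: their Prap1 level was 1.13% and 1.02% of that in the droplets. At that rate free RNA would bring 3.02 of the 430 CPM of Ifit1 in the control-labelled library. The rule left out cells with an Epcam UMI, so an estimate from an epithelial gene can be too low. The part of free RNA in the contrast was not tested. An estimate scaled by fibroblast collagens came to 23.1% and 0.676% of the members' UMIs, and with it subtracted the log2 ratio of Isg15 went from -1.97 to 1.98, that of Prap1 to 0.23 and that of Ifit1 to -4.76. In the control-labelled library 28 of the 31 collagen UMIs of the members lay in 1 cell. With that cell left out of the estimate, the free RNA came to 2.29% and Isg15 to -1.87, while Prap1 was again at 0.23. Possible doublets, members with over 3 times the median UMIs or at least 2 UMIs of markers of other cell types (Kit not counted), numbered 12 and 49. Without them 21 of 29 interferon-stimulated genes were past 2-fold lower, with a median of -1.47, where 97 of 6778 genes in all were lower (1.43%) and 366 higher (5.4%). Map3k12 went from -2.52 to 0.08 without them, since 26 of its 30 UMIs in the control-labelled library came from 1 cell. Map3k12, Prap1 and Tepsin no longer had 20 UMIs over the remaining members.

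**Figure D5:**
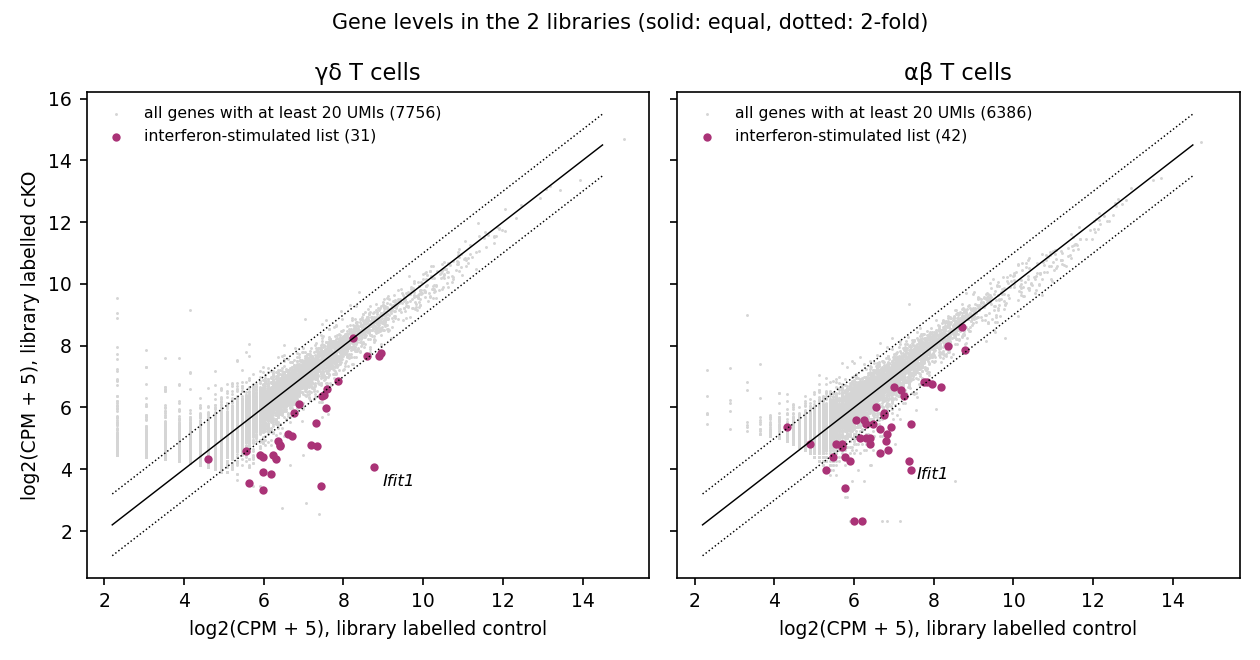
Level of each gene with at least 20 UMIs in the control-labelled library (horizontal) and cKO (vertical), on the log2(CPM + 5) scale, in γδ T cells (left) and αβ T cells (right). The interferon-stimulated list lies mostly below the line of equal levels in both classes, with 23 of 31 and 24 of 42 genes below the lower dotted 2-fold line.

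Interferon-stimulated genes are known to be switched on through a short promoter element read by the factors ISGF3 and IRF, and the promoters of 3 of the 10 lowest genes are shown because these genes carry the contrast between the libraries. The motif, GAAA followed by any 2 bases and GAAA again, was searched on both strands in the 250 bases before the start of each gene and overlapping matches were counted separately. By the RefSeq promoters on GRCm38.p6, 936 of 27025 genes (3.46%) held it. Of the 23 interferon-stimulated genes past 2-fold lower, 17 had a promoter in that table and 12 of these held the motif (70.6%). Of the other 8 genes of the list past the filter, 4 of 6 with a promoter in the table held it (66.7%), and so did 4 of 9 among the 10 lowest genes (44.4%). The list is made of genes known to respond to interferon, so these shares describe the list, not the contrast. The 150 bases before each start follow, 5′ to 3′ on the gene's strand, with motif matches in capitals, here all on the opposite strand, where they read TTTC on either side of the 2 free bases. Ifit1 is at chr19:34640739-34640888 on the plus strand, Rsad2 at chr12:26456453-26456602 on the minus strand and Cmpk2 at chr12:26469065-26469214 on the plus strand.
Ifit1: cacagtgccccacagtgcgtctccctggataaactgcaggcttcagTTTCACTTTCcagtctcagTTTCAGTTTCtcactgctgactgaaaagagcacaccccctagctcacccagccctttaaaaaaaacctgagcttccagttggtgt
Rsad2: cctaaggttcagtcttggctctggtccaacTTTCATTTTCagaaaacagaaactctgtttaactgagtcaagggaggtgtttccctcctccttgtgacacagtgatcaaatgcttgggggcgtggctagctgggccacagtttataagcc
Cmpk2: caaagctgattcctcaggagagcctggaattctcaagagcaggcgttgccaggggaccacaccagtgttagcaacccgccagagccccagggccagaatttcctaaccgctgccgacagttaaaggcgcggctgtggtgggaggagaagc
The Ifit1 window holds 2 matches, nearest at 85 bases before the start, and the Rsad2 window holds 1, at 120 bases. The letters searched do not occur in the Cmpk2 window. Cmpk2 and Rsad2 are neighbours on chromosome 12. A match is a description of the sequence and shows no binding.

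The genes highest in the cKO-labelled library came from few members. The 10 highest were Cd74, Hba-a1, Hba-a2, Edn1, Ccr7, Cyp1a1, Hbb-bs, Selp, Il1b and Slc7a11. Cd74 had 0 UMIs in the control-labelled library and 888 in 12 of 264 members of the cKO-labelled library, 261 of them in 1 cell. Ccr7, a receptor of dendritic and naive T cells, had 249 UMIs in 9 members, and Edn1, an endothelial product, 288 in 10. Members with more than 3 times the median UMIs numbered 0 and 9. The dendritic marker list summed to 12.8 and 1157 CPM and the endothelial one to 32.1 and 202 CPM. Without possible doublets the cKO-labelled library had 8.70 and 19.9 CPM, and the log2 ratio of Cd74 went from 7.23 to 0.58. That filter removes members by dendritic and endothelial markers, among them Flt3 and Pecam1. The fall of the lists is thus partly fixed by the filter, and nothing is read from it. The macrophage list had 8 and 39 UMIs in 8 and 23 members, with C1qc and Fcgr1 at 0 and the C1q genes limited by the rule. The dendritic list had 4 and 1374 UMIs in 4 and 20 members, with Cd209a and Clec9a at 0. The epithelial list had 11 and 16 UMIs in 11 and 9 members, with Krt19 at 0 and Epcam at 0 by the rule. The neutrophil list had 1 and 2 UMIs. The haemoglobin genes stayed high without possible doublets: Hba-a1 had 0 UMIs in the control-labelled library and 635 in 9 members of the cKO-labelled library, with 823 and 934 CPM in their near-empty droplets. The part of red cells in this result was not tested. Hba-a1 and Hba-a2 are near-identical copies.

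Other differences were spread over more members. Nt5e, which encodes CD73, an enzyme that makes adenosine outside the cell, had 2 UMIs in 2 of 74 members (6.42 CPM, 0.780 to 23.2) and 105 UMIs in 58 of 264 (88.4 CPM, 72.3 to 107). Its log2 ratio was 3.03, and 3.09 without possible doublets, and at 1000 UMIs per cell 1.35% and 8.33% of members had a UMI. In αβ T cells it was found in 40.5% and 36.5% of cells, and in fibroblasts in 0.323% and 0.762%. Csf2rb, the shared β subunit of cytokine receptors, had 0 UMIs and 135 in 33 members, at least 11.8-fold higher by the floor of 3 counts over the group. Without possible doublets Manbal, Wdr47, Fam160b2 and Matn2 followed, with 20 to 49 positive members in the cKO-labelled library and log2 ratios of 2.80 to 3.04. Over all members their ratios were 2.14, 2.71, 1.40 and 0.80, so Matn2 was not past 2-fold there. Wdr47 had 0 UMIs in the control-labelled library and was at least 2.88-fold higher by the floor of 3 counts. Csf2rb, Wdr47 and Nt5e, with 0, 0 and 2 UMIs in the control-labelled library, passed the filter of 20 UMIs through the other alone. Kit, a growth factor receptor named here after its values were seen, had 10 UMIs in 7 members and 123 in 59.

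The counts of interleukin 17 programme genes past 2-fold between the libraries are a description only, since the lists are short. Of 20 receptor genes of the programme past the filter, Cd163l1 not counted, 0 were past 2-fold in either direction. Their median log2 ratio was -0.19, and 6.95% of all genes were higher and 1.51% lower. Of 16 regulators 2 were higher and 0 lower, with a median of -0.11. Without possible doublets 1 of 20 receptor genes was lower and 1 of 14 regulators higher, where 5.4% of all genes were higher and 1.43% lower. The 2 regulators higher over all members were Sox4, with 1 UMI and 55 UMIs in 11 members, and Sox13, with 3 and 40 UMIs. Both passed the filter of 20 UMIs through the cKO-labelled library alone. The ratio of Sox13 levels was 3.50 (1.11 to 17.7). Il17a had 12.8 and 26.1 CPM, a ratio of 2.03 (0.72 to 7.92) whose interval includes 1. Of 10 genes of T-cell receptor signalling other than the Cd3 genes, 1 was higher and 1 lower. Of 11 checkpoint and costimulation genes Nt5e was the one past 2-fold higher, and Pdcd1 had 970 and 897 CPM, a ratio of 0.93 (0.81 to 1.06). Igf1r had 3140 and 3080 CPM, a ratio of 0.98 (0.91 to 1.05).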

How the data were processed

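Droplet single-cell RNA sequencing (10x 3′ v3) was done on 1 library per group. The authors deposited unfiltered matrices of UMI counts per gene and barcode. Alignment was with Cell Ranger 6.1.1 to mm10, per the submitters' processing notes, while the matrix headers, per the file headers, name Cell Ranger 4. How the counts treated strand is not given in the sources used here.

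From these counts, cells were filtered and gated with numpy 2.4.6, scipy 1.17.1 and pandas 2.3.3 in Python 3.11.15, without clustering. Counts were summed per class and library and scaled to CPM. Log2 ratios had 5 CPM added and were read for genes with at least 20 UMIs, and a gene counted as past 2-fold at an absolute log2 ratio of at least 1. Intervals are exact Poisson for levels, Clopper-Pearson for shares and exact conditional for ratios. Thinning drew 1000 UMIs per cell without replacement with seed 1. The calling code was tested on simulated data. No doublet caller was run, and possible doublets were members with over 3 times the median UMIs or at least 2 UMIs of markers of other cell types. Free RNA was taken from barcodes of 10 to 100 UMIs. Fibroblasts had a Pdgfra UMI and no Ptprc, Epcam or Cd3 UMI. Macrophages had at least 6 C1q UMIs, smooth muscle at least 2 UMIs each of Myh11 and Acta2 and no Ptprc UMI, and epithelium an Epcam UMI.

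The members and gene lists were chosen with earlier results of these data known. Named genes were the rule genes, the 10 highest and lowest ratios in each direction between libraries and over αβ T cells, 5 over NK cells and between members with and without Trdv4 or Cd163l1, and genes that describe a list. Chosen after the values were seen were the gates for NK cells (the planned gate, by Ncr1 and Klrb1c, kept 1 cell in each library), smooth muscle and epithelium, a doublet filter that ignores Kit and the ranking under it, the Prap1 estimate of free RNA, the per-cell list sums, the promoter motif and the remarks on Nt5e and Kit. Values of some genes in the lists are not reported here.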

Additional observations from a re-analysis of the deposited data

Results flagged for a closer look

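The type 1 and cytotoxic list had a median log2 ratio of 1.41 between the cKO-labelled library and the control-labelled library in γδ T cells, against -0.39 in αβ T cells, with opposite signs. That difference was not tested. Of 11 of its genes past the filter of 20 UMIs in γδ T cells, 6 were past 2-fold higher and 0 lower, where 6.95% of all genes were higher. Of the 6, Eomes, Klrd1 and Klre1 had 0 UMIs in the control-labelled library and passed the filter through the other alone, so nothing is read from the count. With genes at 0 in one library set to their bound the median was 0.88, and without possible doublets, their markers not counting Kit, it was 0.26 over 4 genes. Klrd1, an NK receptor subunit, had 0 UMIs and 29 in 11 members, and Gzma had 1 UMI and 36 in 4 members. The NK marker list summed to 6.42 CPM in members of the control-labelled library and to 130 CPM in those of the cKO-labelled library. The part of NK cells in this result was not tested.

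Cells that passed the rest of the rule with no Cd3 UMI numbered 12 in the control-labelled library and 22 in the cKO-labelled library, and they are in no comparison above. Their NK marker list stood at 2438 and 1427 CPM, against 6.42 and 130 CPM in the members. The γδ receptor segments, which helped choose them, had 476 and 1360 CPM, against 3423 and 2848 in members and 55.2 and 45.2 in NK cells. The interleukin 17 receptor list with Cd163l1 had 2621 and 4627 CPM, against 9273 and 8254 in members and 1723 and 1716 in NK cells. A list of group 2 lymphoid cells had 2915 and 435 CPM, against 311 and 406 in members. Which cell types they hold was not tested.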

How the results depend on the processing

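No paired analysis was possible because each group has 1 library, and for the same reason no replicate could be left out. The ratio of γδ T-cell shares was 3.47, and 2.53 without Epcam-positive cells, 2.25 among Ptprc-positive cells and 1.61 among Cd3-positive cells; it lay between 3.24 and 3.80 under the other gates and depths. In the library contrast, genes past 2-fold higher in γδ T cells (539) numbered 356 without possible doublets (Kit counted as a marker), 216 with 20 CPM added, 229 at 50 UMIs, 1114 at 1 UMI, 318 with thinned cells and 830 after free RNA was subtracted. Lower genes (117) numbered 177 with 1 CPM added, 44 with 20 CPM, 39 at 50 UMIs, 320 at 1 UMI and 205 after subtraction. That subtraction reversed Prap1 (0.23) and Isg15 (1.98); it scaled free RNA by fibroblast collagens to 23.1% of the members' UMIs in the control-labelled library and 0.676% in the cKO-labelled library. With 1 collagen-rich member left out of that estimate (chosen after the data were seen) it gave 564 higher and 126 lower genes, and Prap1 was again reversed (0.23). The interferon list stayed below 0 under each alternative run for lists.

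With 20 CPM added, γδ over αβ T cells gave 134 higher and 144 lower genes, γδ over NK cells 247 and 249, and members with over without Trdv4 or Cd163l1 384 and 41. With thinned cells the counts were 134 lower over αβ T cells, 335 and 270 over NK cells, and 441 and 61 for the last comparison. At 50 UMIs they were 176 lower over αβ T cells and 329 and 42 for the last comparison, which gave 1640 higher genes at 1 UMI.

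With thinned cells the median log2 ratio between libraries was -0.087 (from -0.23) for interleukin 17 receptors with Cd163l1, -1.23 (from -1.58) for interferon genes, 0.18 (from 0.45) for immediate early genes, 0.67 (from 0.16) for cell cycle genes, -0.47 (from -0.22) for glycolysis and -0.45 (from 0.21) for tissue repair factors. Without possible doublets (Kit not a marker, chosen after the data were seen) it was 0.085 (from 1.10) for effector cytokines, 0.26 (from 1.41) for cytotoxic genes and 0.082 for immediate early genes. The tolerance for calling such a median moved was changed after the first verdicts were seen, from the interval of the summed ratio to the counting error of a median, which lowered the number of values called moved. Of the alternatives to main values, 38 moved and 93 did not. Of those to single genes, 56 moved, 3 reversed and 603 did not move. The causes were not tested. The 74 members of the control-labelled library limit the precision of every ratio between libraries.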
